A study of Mus musculus with 6 samples.

Results

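The genes described here make, activate and destroy eicosanoids, the short-lived lipid signals that cells cut from membrane arachidonic acid. They were chosen by symbol from the deposited expression table, and all 10 named genes were found among its 54966 features. The RNA came from mouse macrophages that carried CD11b and F4/80 but little Ly6C. They had been sorted from skeletal muscle 3 days after barium chloride injury, a chemical lesion that kills fibres and lets them regrow. The labels call these cells pro-repair. There were 3 libraries from old mice and 3 from young mice, all wild type. The sources used here do not give the ages, strain or sex of the mice, or say whether each library came from a separate animal. The p-values therefore measure the spread between libraries, which may be technical.

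Eicosanoid synthesis has a cyclooxygenase branch and a lipoxygenase branch. Cyclooxygenases turn arachidonic acid into prostaglandin H2, from which prostaglandin E synthases make prostaglandin E2. This lipid acts on neighbouring cells through receptors such as EP4 and is known to drive muscle stem cells to divide during repair. The enzyme 15-hydroxyprostaglandin dehydrogenase, encoded by Hpgd, oxidises prostaglandin E2 and ends its action. In the other branch, 5-lipoxygenase and its helper protein FLAP make leukotriene A4, which is turned into the neutrophil attractant leukotriene B4 or into the cysteinyl leukotrienes.

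Values are FPKM, that is fragments divided by gene length and by a library total. Genes can be compared in this unit, and comparison between libraries depends on that total. Recovered totals were 17890034 to 19400929 fragments in old libraries and 16543939 to 18353692 in young libraries. The library total implied by the FPKM values was below the recovered total in every old library. It was above the recovered total in every young library, so the ratio of these totals differed between the groups. Scaling factors were also computed on the FPKM values, as the median ratio of genes to their geometric mean over the libraries. They were 1.0018 to 1.0081 in old and 1.0005 to 1.0084 in young. The 10 macrophage marker genes were present in every library. Their summed level was higher in every old library, at 7933 to 8714 FPKM in old and 6739 to 7678 FPKM in young. Most of this sum came from C1qa, C1qb, C1qc and Cd68. Singly, Adgre1, Itgam, Cd68, C1qb and Fcgr1 were higher in every old library. The groups overlapped for C1qa, C1qc, Cd14, Mertk and Csf1r, and the mean of Csf1r was 385 FPKM in old and 454 FPKM in young. Of the genes for the sorting markers, Adgre1 had 430 to 476 FPKM in old and 347 to 382 FPKM in young. Itgam had 41.9 to 50.9 FPKM in old and 34.3 to 36.9 FPKM in young. Ly6c2 overlapped, at 2.46 to 7.68 FPKM in old and 1.31 to 3.20 FPKM in young. Ly6c1 was barely detected, at 0.0325 to 0.104 FPKM in old and 0.105 to 0.484 FPKM in young. It was too low to be tested, and its groups were apart by a very narrow margin. Whether the sorted cells matched between the groups was not tested. Every pair of libraries, within or between groups, differed by more than counting error. The mean squared difference was 11.1 to 44.9 times the counting variance, so no library was a copy of another. It was 11.1 to 26.8 times within groups and 16.7 to 44.9 times between groups, and these ranges overlapped.

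Among the 8 members abundant enough to be tested, Hpgd differed most between old and young. The gene lies on chromosome 8, from 56294585 to 56321043 on the plus strand (GRCm38). It had 9.51, 8.45 and 6.12 FPKM in old replicates 1 to 3, against 20.2, 34.7 and 55.1 FPKM in young replicates 1 to 3. Every old library was below every young one, and young replicate 1 was the young library closest to the old ones. The mean was 8.03 ± 1.73 FPKM in old and 36.7 ± 17.5 FPKM in young (SD, n = 3 each), 4.57-fold lower in old. On the log2(FPKM + 1) scale the change was -1.97 (SE 0.337), with a 95% confidence interval from -2.77 to -1.17. It did not pass the threshold of 0.05 after adjustment over all 11108 tested genes (limma unadjusted p = 0.000642, adjusted p = 0.119). The log2 change of Hpgd was number 2 from the bottom of all tested genes, of which 32 (0.288%) had a log2 change of -1 or below. Ranked by limma p-value, Hpgd was number 60 of all tested genes.

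The young libraries also differed widely among themselves in Hpgd. Their coefficient of variation was 47.8%, where counting error alone gives 3.23%, and in old it was 21.6% against 6.53%. Old libraries held 286, 245 and 189 Hpgd fragments, against 629, 983 and 1580 in young libraries, so depth did not limit the measurement. Without young replicate 1 the log2 change was -2.33 and passed (limma adjusted p = 0.0491). Leaving out each of the other libraries gave -2.09 to -1.63, with limma adjusted p between 0.157 and 0.333. With array weights, which count noisier libraries less, the change was -2.09 and also passed (limma adjusted p = 0.0361).

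**Figure D1:**
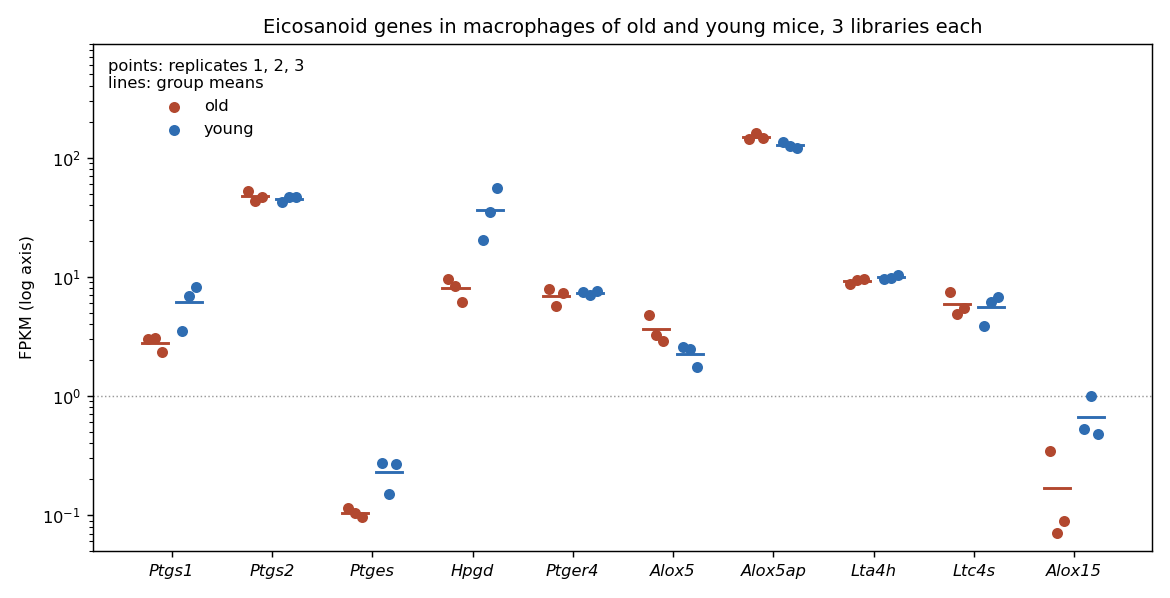
FPKM of the 10 eicosanoid genes in each library on a log axis, with old libraries in red on the left of each gene and young libraries in blue; points are replicates 1, 2 and 3, short lines are group means, and the dotted line marks 1 FPKM, the smallest mean at which a gene was tested. Old Hpgd values (6.12 to 9.51 FPKM) all lie below young ones (20.2 to 55.1 FPKM), while Ptgs2 values of the groups overlap.

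Of the cyclooxygenase genes, the constitutive Ptgs1 had lower values in old and the inducible Ptgs2 did not differ beyond its spread. Ptgs1 (chromosome 2, 36230426 to 36252272, plus strand) had 3.01, 3.05 and 2.32 FPKM in old, against 3.52, 6.86 and 8.21 FPKM in young. The groups did not overlap, but young replicate 1 lay close to the old libraries. The change was -0.87 on the log2 scale (SE 0.254; limma adjusted p = 0.214), and it was -1.17 without young replicate 1 (limma adjusted p = 0.0574).

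Ptgs2 (chromosome 1, 150100031 to 150108227, plus strand) was the more abundant cyclooxygenase transcript in every library. It had 52.6, 43.1 and 46.9 FPKM in old, against 42.3, 46.4 and 46.7 FPKM in young. The ranges overlapped, with old replicate 1 the highest of all. The log2 change was 0.07 (limma adjusted p = 0.753), with a 95% confidence interval from -0.14 to 0.28. In a ratio chosen after the values were seen, Ptgs2 stood at 5.53, 5.11 and 7.66 times the FPKM of Hpgd in old, against 2.09, 1.34 and 0.847 times in young.

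Ptges, which encodes the inducible microsomal prostaglandin E synthase, was barely detected. It had 0.114, 0.103 and 0.0971 FPKM in old, against 0.275, 0.151 and 0.269 FPKM in young. These values rest on 7 or 8 fragments in each old library and on 20, 10 and 18 in young replicates 1 to 3. Its mean was below the minimum of 1 FPKM and it was not tested. The groups did not overlap at these low counts, and the size of the log2 difference (-0.16) depends on the pseudocount. It was -0.67 with a pseudocount of 0.1 and -1.03 with 0.01.

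Ptger4, which encodes the prostaglandin E2 receptor EP4, did not differ beyond its spread. It lies on chromosome 15, from 5206661 to 5244187 on the minus strand, and had 7.95, 5.65 and 7.29 FPKM in old, against 7.41, 7.07 and 7.60 FPKM in young. The highest and the lowest value were both from old libraries. The log2 change was -0.08 (limma adjusted p = 0.78), with a 95% confidence interval from -0.35 to 0.19.

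In the leukotriene branch, the genes of 5-lipoxygenase and of FLAP had higher values in old, and neither passed the threshold. Alox5, the 5-lipoxygenase gene (chromosome 6, 116410077 to 116461178, minus strand), had 4.81, 3.25 and 2.88 FPKM in old, against 2.58, 2.46 and 1.76 FPKM in young. Every old library was above every young one, and old replicate 1 was well above the others. The log2 change was 0.50 (SE 0.175, limma adjusted p = 0.269), and it was 0.32 without old replicate 1.

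Alox5ap, which encodes FLAP, the membrane protein that presents arachidonic acid to 5-lipoxygenase, was the most abundant member in every library. It lies on chromosome 5, from 149264767 to 149288153 on the plus strand. Old libraries had 143, 162 and 147 FPKM, against 136, 126 and 120.5 FPKM in young libraries. The groups did not overlap, at a mean 1.18 times as high in old. The log2 change was 0.24 (SE 0.0817, limma adjusted p = 0.263).

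The enzymes that use leukotriene A4 were near the same level in both groups. Lta4h, whose product makes leukotriene B4 (chromosome 10, 93453411 to 93484875, plus strand), had 8.63, 9.37 and 9.51 FPKM in old, against 9.55, 9.75 and 10.3 FPKM in young. The groups were apart by a narrow margin, with 0.928 times the young mean in old and a log2 change of -0.10 (limma adjusted p = 0.543). Ltc4s, whose product makes leukotriene C4 (chromosome 11, 50236461 to 50238616, minus strand), had 7.45, 4.87 and 5.43 FPKM in old, against 3.89, 6.10 and 6.77 FPKM in young. These ranges overlapped. The log2 change was 0.08 (limma adjusted p = 0.889), with a 95% confidence interval from -0.40 to 0.56. The sign of Ltc4s turned without old replicate 1 and without young replicate 1.

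Alox15 encodes the mouse 12/15-lipoxygenase, which serves the synthesis of lipoxins and related lipids and is a known product of alternatively activated and resident macrophages. It lies on chromosome 11, from 70344152 to 70352031 on the minus strand. It was low, with 0.342, 0.071 and 0.0889 FPKM in old, against 0.529, 0.993 and 0.479 FPKM in young. These correspond to 15, 3 and 4 fragments in old and to 24, 41 and 20 in young. No old library reached a young one. Its mean was below 1 FPKM, so no test was made, and the log2 difference of -0.51 became -1.60 with a pseudocount of 0.1 and -2.18 with 0.01.

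Counted together, 8 of the 10 members had a mean of at least 1 FPKM and were tested, and all 8 reached 1 FPKM in every library. None was called by limma after adjustment over all genes, where 4 of 11108 genes (0.036%) were called, 2 in each direction (0.018% each), and none was called by limma voom on the recovered fragments. At an unadjusted p under 0.05 there were 4 members, Hpgd and Ptgs1 lower and Alox5 and Alox5ap higher, beside 15.0% of all tested genes. Groups were fully apart in 5 of the 8 tested members (2 higher and 3 lower in old), beside 20.9% of all tested genes (12.3% higher and 8.59% lower). The median log2 change of the 8 was -0.005 and that of all tested genes 0.012, with members on both sides of it.

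**Figure D2:**
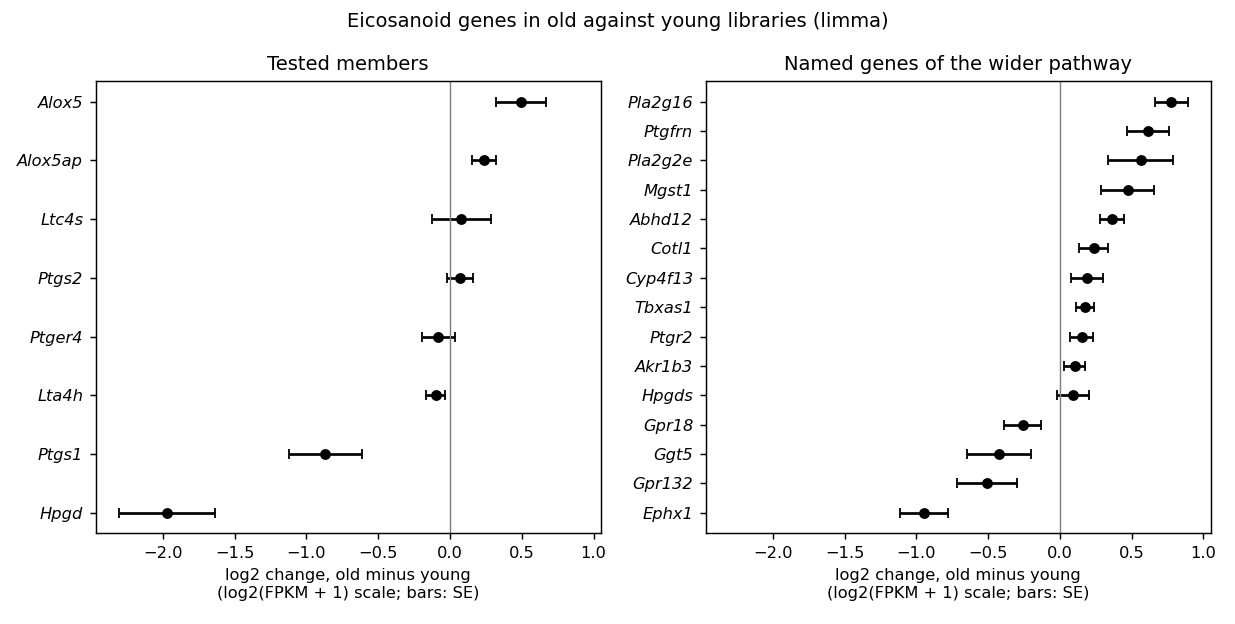
Log2 change of FPKM + 1, old minus young, with its SE from limma, for the 8 tested members (left) and for the named genes of the wider pathway (right). Hpgd (-1.97) and Ptgs1 (-0.87) lie farthest to the left among the members, Alox5 (0.50) farthest to the right, and none of the genes shown passed the adjusted threshold.

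The order of the members by mean level differed between the groups. In old, Alox5ap (150.5 FPKM) and Ptgs2 (47.5 FPKM) stood apart at the top. They were followed by Lta4h (9.17 FPKM), Hpgd (8.03 FPKM), Ptger4 (6.96 FPKM) and Ltc4s (5.92 FPKM), where each neighbouring pair overlapped. Below these, Alox5 (3.65 FPKM) and Ptgs1 (2.79 FPKM) overlapped, as did Alox15 (0.167 FPKM) and Ptges (0.105 FPKM). In young, Alox5ap (128 FPKM) was again first, and the ranges of Ptgs2 (45.1 FPKM) and Hpgd (36.7 FPKM) overlapped. Lta4h (9.88 FPKM) stood apart from its neighbours, and Ptger4 (7.36 FPKM), Ptgs1 (6.20 FPKM) and Ltc4s (5.59 FPKM) overlapped in turn. Alox5 (2.27 FPKM), Alox15 (0.667 FPKM) and Ptges (0.232 FPKM) followed, each apart from the next. Ptgs1 moved farthest in this order, at place 8 in old and place 6 in young, and Hpgd was at place 4 in old and place 3 in young.

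The 250 bases before the gene start given by RefSeq are shown for Hpgd, Ptgs1 and Alox5, the members at an unadjusted p under 0.05 for which RefSeq (GRCm38.p6) gave a promoter, and for Ptgs2, the cyclooxygenase gene whose groups overlapped. Capitals mark GGGCGG, the core of the GC box that Sp1 binds, and GAGGAA, a purine-rich core of the kind that the macrophage factor PU.1 binds, on either strand.
Hpgd, chr8:56294302-56294551, plus strand: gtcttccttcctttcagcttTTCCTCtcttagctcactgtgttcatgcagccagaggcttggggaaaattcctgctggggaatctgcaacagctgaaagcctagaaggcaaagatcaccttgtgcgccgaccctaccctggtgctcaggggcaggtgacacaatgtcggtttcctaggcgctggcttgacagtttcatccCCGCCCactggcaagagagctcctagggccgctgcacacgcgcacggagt
Ptgs1, chr2:36230176-36230425, plus strand: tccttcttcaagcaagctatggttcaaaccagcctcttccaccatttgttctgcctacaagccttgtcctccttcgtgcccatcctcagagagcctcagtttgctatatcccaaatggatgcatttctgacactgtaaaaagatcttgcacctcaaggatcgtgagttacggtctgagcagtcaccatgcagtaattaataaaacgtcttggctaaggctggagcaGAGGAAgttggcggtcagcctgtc
Ptgs2, chr1:150099781-150100030, plus strand: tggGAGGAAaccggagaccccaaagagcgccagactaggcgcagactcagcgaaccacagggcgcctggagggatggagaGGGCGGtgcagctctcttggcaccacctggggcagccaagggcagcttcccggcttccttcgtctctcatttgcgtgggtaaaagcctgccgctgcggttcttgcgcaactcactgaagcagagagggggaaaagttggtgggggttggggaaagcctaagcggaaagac
Alox5, chr6:116461179-116461428, minus strand: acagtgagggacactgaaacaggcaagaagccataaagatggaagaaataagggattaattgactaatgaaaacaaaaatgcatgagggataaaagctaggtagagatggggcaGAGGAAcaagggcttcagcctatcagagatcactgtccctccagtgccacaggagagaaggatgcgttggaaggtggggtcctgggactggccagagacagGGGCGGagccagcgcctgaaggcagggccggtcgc

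Both kinds of match occurred in Hpgd, Ptgs2 and Alox5, and Ptgs1 held GAGGAA alone, 24 to 19 bases before its start. The Ptgs1 stretch also had the lowest GC content of the 4, at 48.0%, against 56.8% for Hpgd, 61.6% for Ptgs2 and 52.8% for Alox5 (median of all promoters 52.4%). Among the 8 members with a promoter in the table, 6 held GAGGAA and 5 held GGGCGG, while 23.3% and 32.7% of all 32851 promoters of this length did. TATAAA (12.4% of all promoters) and the AP-1 type motif TGANTCA (6.75%) were not found in the 250 bases of any of the 8. Both strands were searched, and no match of one motif overlapped a match of another in the 4 stretches printed. The RefSeq start of Hpgd lies upstream of the start of the gene given above from GENCODE. These are matches of letters and not measured binding sites.

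Genes of the wider eicosanoid pathway were read from the same fit, and none of the 39 tested was called (limma). At an unadjusted p under 0.05, 6 were higher and 2 lower, beside 8.84% and 6.18% of all tested genes. The groups did not overlap for 4 higher and 1 lower, beside 12.3% and 8.59% of all tested genes. The 39 came from 69 listed features found in the table, of which 4 (Ptgds, Alox12b, Ptgdr and Oxgr1) were at 0 in every library.

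Of 11 tested genes that release or remodel arachidonic acid, 3 were higher at an unadjusted p under 0.05. Pla2g16, a phospholipase A best known from fat cells, had 4.91 ± 0.638 FPKM in old and 2.46 ± 0.367 FPKM in young, with every old library above every young one (log2 change 0.77, limma adjusted p = 0.0826). Abhd12, a lysophospholipid lipase, had 158 ± 12.4 FPKM in old and 122 ± 6.76 FPKM in young (SD, n = 3 each; log2 change 0.36, limma adjusted p = 0.172). The secreted phospholipase gene Pla2g2e had 1.70 ± 0.653 FPKM in old and 0.822 ± 0.397 FPKM in young, with overlapping groups. Pla2g4a, which encodes the cytosolic phospholipase A2 that feeds both branches, had 3.05 to 3.47 FPKM in old and 3.22 to 3.62 FPKM in young (log2 change -0.06, limma adjusted p = 0.78).

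Among 7 tested prostanoid synthase genes, 1 was higher at an unadjusted p under 0.05. This was the thromboxane synthase gene Tbxas1, with 15.2, 14.7 and 14.3 FPKM in old, against 12.4, 13.5 and 12.8 FPKM in young (log2 change 0.18, limma adjusted p = 0.27). Hpgds, which makes prostaglandin D2 and whose symbol resembles that of Hpgd, had 27.7 ± 0.128 FPKM in old and 26.2 ± 4.02 FPKM in young (SD, n = 3 each; log2 change 0.09, limma adjusted p = 0.739). Akr1b3, an aldose reductase that can form prostaglandin F2alpha, had a log2 change of 0.10 (limma adjusted p = 0.551). The constitutive prostaglandin E synthase genes had higher levels than Ptges in every library. Ptges2 had 1.68 to 2.04 FPKM in old and 1.62 to 1.98 FPKM in young, and Ptges3 had 28.6 to 42.1 FPKM in old and 29.8 to 35.7 FPKM in young.

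Of 5 tested genes of leukotriene metabolism, Mgst1, a microsomal glutathione transferase, had 27.6 ± 6.62 FPKM in old and 19.3 ± 2.31 FPKM in young (log2 change 0.47, limma adjusted p = 0.299). Cotl1, whose product binds and stabilises 5-lipoxygenase, had 720.4 ± 48.2 FPKM in old and 613 ± 59.7 FPKM in young (log2 change 0.24, limma adjusted p = 0.345). Ggt5, which trims leukotriene C4 to leukotriene D4, had 1.15 ± 0.27 FPKM in old and 1.96 ± 0.832 FPKM in young (log2 change -0.42, limma adjusted p = 0.433). In all 3 genes the groups overlapped.

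Among 7 tested genes of breakdown and transport, Ephx1, the microsomal epoxide hydrolase gene, was lower at an unadjusted p under 0.05. It had 8.12, 5.15 and 5.51 FPKM in old, against 11.6, 12.1 and 14.9 FPKM in young. Every old library was below every young one. The change was -0.95 on the log2 scale (SE 0.165; limma adjusted p = 0.122). For the enzymes that act on the product of the Hpgd reaction the groups overlapped. Ptgr1 had 17.8 to 20.7 FPKM in old and 19.1 to 22.2 FPKM in young (log2 change -0.12, limma adjusted p = 0.576), and Ptgr2 had 5.32 ± 0.42 FPKM in old and 4.69 ± 0.273 FPKM in young (log2 change 0.15, limma adjusted p = 0.42). Cyp4f13, of a family that hydroxylates eicosanoids, had a log2 change of 0.19 (limma adjusted p = 0.479). Slco2a1, the prostaglandin importer, was listed at 0 in every old library and at no more than 0.0132 FPKM in young.

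Receptors were mostly low. Among the prostaglandin E2 receptors, Ptger4 was the most abundant, Ptger2 had 1.28, 2.22 and 2.60 FPKM in old, against 1.51, 1.63 and 1.66 FPKM in young, and Ptger1 and Ptger3 stayed under 1 FPKM in every library. Of 9 tested receptor-list genes, Ptgfrn, whose product binds the prostaglandin F receptor, had 2.12 ± 0.556 FPKM in old and 1.02 ± 0.0599 FPKM in young (log2 change 0.61, limma adjusted p = 0.172). Gpr132, a receptor for oxidised fatty acids and lysolipids, had 21.3 ± 5.48 FPKM in old and 30.7 ± 6.92 FPKM in young (log2 change -0.51, limma adjusted p = 0.325), and Gpr18 had a log2 change of -0.26 (limma adjusted p = 0.406). The leukotriene receptor gene Cysltr1 had 8.26 to 10.2 FPKM in old and 6.94 to 8.59 FPKM in young.

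The 5 protein-coding genes most like Hpgd in their pattern over the 6 libraries were Mmp9, Dnase1l3, Adgre4, Cd4 and Tmem176a. Likeness was the root mean square difference between log2(FPKM + 1) values, each gene centred on its own mean, over 9671 genes. It was 0.311 for Mmp9, 0.342 for Dnase1l3, 0.398 for Adgre4, 0.427 for Cd4 and 0.446 for Tmem176a. The gelatinase gene Mmp9 had 1.22, 2.59 and 1.36 FPKM in old, against 6.42, 13.8 and 18.8 FPKM in young (log2 change -2.29, limma adjusted p = 0.093). Dnase1l3, a DNase gene, had 3.48, 2.81 and 2.18 FPKM in old, against 6.79, 8.45 and 12.6 FPKM in young. Adgre4, of the F4/80 family, had 7.59, 4.92 and 4.34 FPKM in old, against 9.28, 12.7 and 24.2 FPKM in young. In all 5 genes young replicate 1 was the lowest young library and young replicate 3 the highest, as in Hpgd. The genes were picked for this likeness, so it is a description of 6 libraries.

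**Figure D3:**
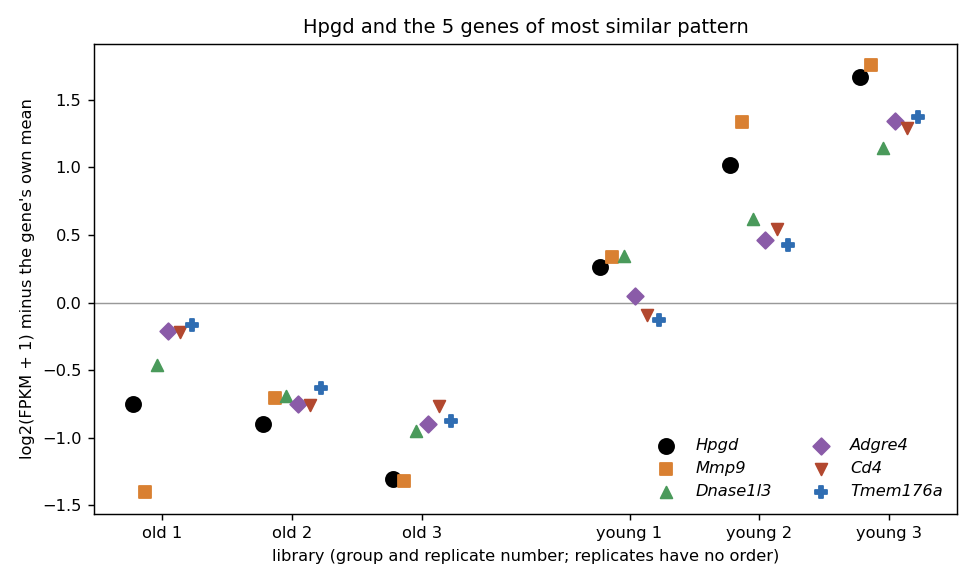
Log2(FPKM + 1) of Hpgd (black) and of the 5 genes of most similar pattern, each centred on its own mean, in the 3 old libraries (left) and the 3 young libraries (right). In every gene the old libraries lie below the gene's mean, and young replicate 3 is the highest library.

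Markers of some other cells were also lower in the old libraries, as were the 5 members Hpgd, Ptgs1, Lta4h, Ptges and Alox15. Lta4h was lower by a narrow margin. Of the tested members, 3 were lower in every old library, beside 8.59% of all tested genes. The summed level of 9 muscle fibre and myoblast markers (5 with a mean of at least 1 FPKM) was 5.89 to 9.94 FPKM in old and 14.7 to 19.1 FPKM in young. That of 7 fibroblast markers (1 with a mean of at least 1 FPKM) was 1.12 to 2.40 FPKM in old and 3.14 to 5.86 FPKM in young. The 8 T and NK cell markers summed to 2.68 to 4.32 FPKM in old and 4.76 to 13.1 FPKM in young, nearly all from Cd4, with Cd3e, Cd3g and Ncr1 at 0 in every library. The 8 dendritic cell markers (4 with such a mean) summed to 25.0 to 48.1 FPKM in old and 45.6 to 60.1 FPKM in young, with overlap. Most of this sum came from Itgax, while Flt3, Zbtb46, Clec9a and Xcr1 stayed under 1 FPKM in every library. Ighm, an immunoglobulin heavy chain gene named after its values were seen, had 18.9, 13.02 and 15.2 FPKM in old, against 21.7, 35.2 and 51.8 FPKM in young. The 10 resident tissue macrophage markers summed to 1484 to 1611 FPKM in old and 1358 to 1997 FPKM in young, most of it from Selenop, which had 929 to 1051 FPKM in old and 1011 to 1696 FPKM in young. Of these markers, 5 (Lyve1, Cbr2, Cd209f, Cd163 and Folr2) were higher in every old library than in any young one, for instance Cbr2 with 208 FPKM in old and 87.4 FPKM in young on average. The 8 Ly6C-high monocyte markers summed to 150.0 to 234 FPKM in old and 133 to 169 FPKM in young, with overlap. The 5 endothelial cell markers summed to 4.98 to 10.2 FPKM in old and 6.87 to 8.37 FPKM in young, with overlap. The 6 platelet markers also overlapped, at 772.5 to 1032 FPKM in old and 620 to 974 FPKM in young, nearly all from Pf4. The part of these cells in the values of the 5 members was not tested. In sorted bulk RNA, fewer cells of a type and less RNA per cell cannot be told apart.

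Markers of the granulocytes known for lipoxygenase products were low. The 9 mast cell and basophil markers summed to 0.538 to 0.606 FPKM in old and 0.462 to 0.702 FPKM in young, with Fcer1a and Ms4a2 at 0 in every library and no marker at a mean of 1 FPKM. The 10 neutrophil markers summed to 3.89 to 4.58 FPKM in old and 4.32 to 5.97 FPKM in young, with Ly6g at 0 throughout. The 8 eosinophil markers summed to 5.88 to 12.7 FPKM in old and 3.84 to 6.29 FPKM in young, with most of it from Ear2, and with Ear1 at 0 and Epx at no more than 0.0399 FPKM. Old replicate 1 was the highest library for eosinophil markers and also for Alox5 and Ltc4s. Whether these cells contributed to Alox5 was not tested.

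Exons of 4 members overlap genes on the other strand. The share of exon bases was 3.81% for Ptgs1, 13.3% for Alox5ap and 26.4% for Ltc4s, whose partners had at most 0.596 FPKM. Ptger4 shared 15.3% with a gene at 0 in every library and 1.23% with Ttc33, which had 7.27 to 8.72 FPKM in old and 7.78 to 8.37 FPKM in young. Whether the authors counted by strand is not given in the sources used here, and without strand the fragments of such pairs cannot be told apart. Hpgd, Ptgs2, Ptges, Alox5, Lta4h and Alox15 shared no exon bases with another annotated gene.

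**Figure D4:**
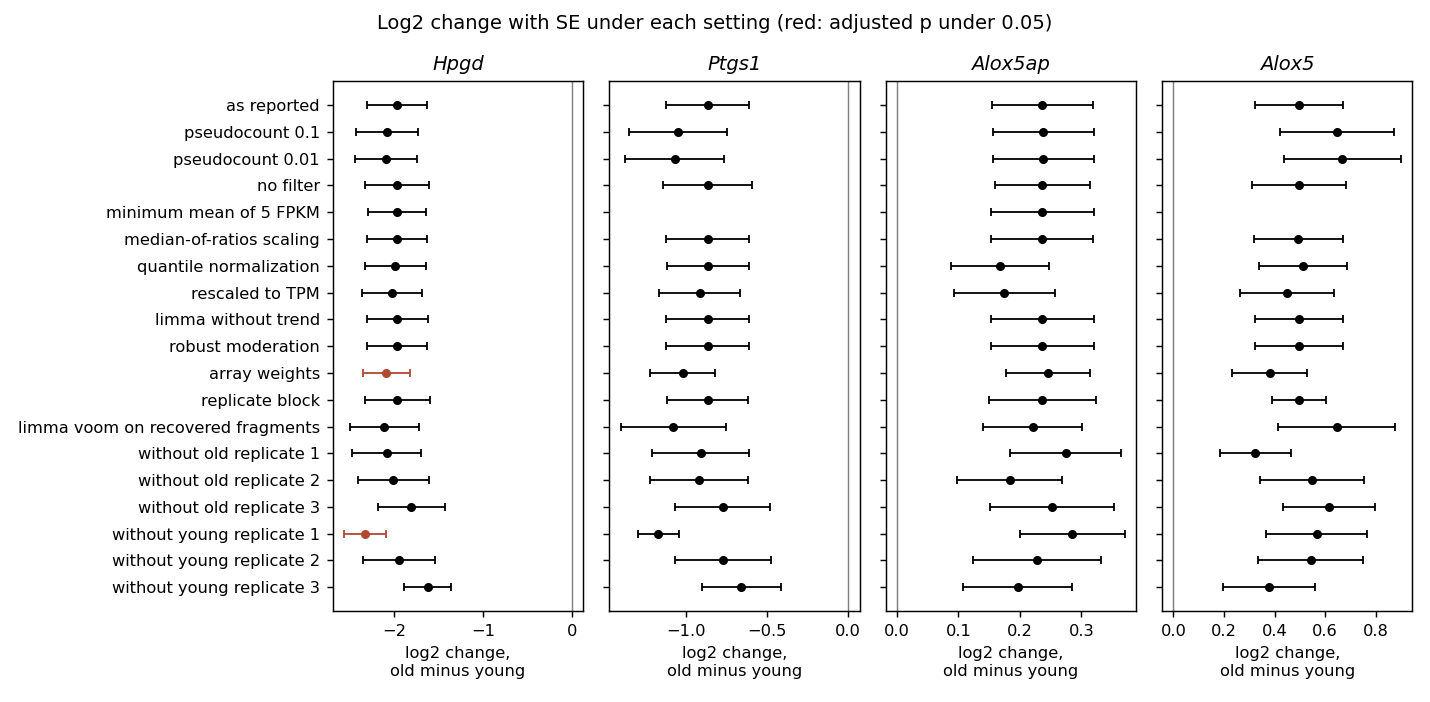
Log2 change, old minus young, with its SE for Hpgd, Ptgs1, Alox5ap and Alox5 as reported and under each alternative setting; red marks an adjusted p under 0.05, and the grey line marks 0. The signs of all 4 genes hold under every setting in which they were tested, and Hpgd passed with array weights (-2.09) and without young replicate 1 (-2.33); Ptgs1 and Alox5 were not tested at a minimum mean of 5 FPKM.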

How the data were processed

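RNA of 6 macrophage libraries, 3 old and 3 young, had been extracted with a micro-scale column kit, per the labels. The authors deposited 1 table of FPKM per gene, scaled by them to a library total. Per the submitters' processing notes the build was GRCm38.p6. The sources used here name no aligner, counter, strandedness or annotation release. Identifiers were matched to GENCODE M21 (54495 of 54966, 99.14%). FPKM times exon-union length gave whole fragments, within 0.02 and for values below 200, in 97.5% to 97.6% of values per library. These recovered fragments give the depths quoted; intervals from counting cover counting error only.

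Old and young were compared with limma 3.58.1 (R 4.3.3) on log2(FPKM + 1), using moderated variances with an intensity trend. Genes averaging 1 FPKM or more entered the fit (11108). Two-sided p-values were adjusted over all of them (Benjamini-Hochberg), and 0.05 was the threshold. Fold changes on this scale understate the change of low genes. The fit was run on simulated data with normal noise, at 1 spread per gene that was the same in both groups. That spread was the moderated one from the same fit, and genes were drawn independently. The shares called can therefore be higher than in real data. Of simulated log2 changes, 54.3% of size 0.5, 90.8% of size 1 and 100.0% of size 2 were called, and 11 of 173 calls were false. Such data lack the unequal spread of the groups seen in Hpgd, so they cannot show how often a change like that of Hpgd is called. Summaries and figures used Python 3.11.15, pandas 2.3.3 and matplotlib 3.10.9.

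The members, gene lists and settings were chosen with earlier results of these data known. The text names all 10 members, up to 3 genes of smallest unadjusted p in each pathway list, and the 5 genes most like Hpgd. Other genes named were chosen after their values were seen. Alternatives were other pseudocounts, filters and scalings, robust moderation, no trend in the variances, array weights, a replicate block, limma voom on recovered fragments, and each library left out in turn.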

Additional observations from a re-analysis of the deposited data

How the results depend on the processing

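Among all tested genes the 4 calls became 0 without the filter, with either smaller pseudocount (0.1 and 0.01), at a minimum mean of 5 FPKM and with the replicate block, 37 (22 higher, 15 lower) with limma voom on recovered fragments, 50 with array weights, and 0 to 15 when each library was left out. No member was called as reported, and 1, Hpgd, was called with array weights and without young replicate 1, so that leaving out each library gave 0 to 1 called members. Hpgd, Ptgs1, Alox5, Alox5ap and Lta4h kept their sign under every alternative in which they were tested, Hpgd between -2.33 and -1.63 with limma adjusted p from 0.0361 to 0.333. Ltc4s turned to -0.036 with array weights and ranged from -0.12 to 0.21 when each library was left out. In the same way Ptgs2 ranged from -0.0033 to 0.14 and Ptger4 from -0.17 to 0.043. The cause of these differences was not tested. Scaling moved the median of all genes by -0.052 on the log2 scale at most (rescaled to TPM). With that rescaling the log2 change was -2.03 for Hpgd, 0.17 for Alox5ap, 0.0099 for Ptgs2 and -0.15 for Lta4h. The replicate numbers gave correlations of 0.0321, 0.0542 and 0.0415 between same-numbered libraries, and every library correlated best with its own number. With 3 libraries per group these small values cannot decide whether the numbers pair the libraries. The labels do not say that they do, so the fit as reported leaves the libraries unpaired. Under the replicate block no member was called, and Hpgd had a limma adjusted p = 0.221. Low counts limit Ptges and Alox15, whose values rest on 3 to 41 fragments per library.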
